A study of Mus musculus with 9 samples.

Results

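The first maturation step of primary mouse megakaryocytes in culture was examined by comparing the 2 arrays titled MK3 with the 2 arrays titled MKP, which are 4 of the 9 arrays of the series. The arrays were taken by their titles. Megakaryocytes had been grown from bone marrow or fetal liver with thrombopoietin and sorted by flow cytometry on surface CD41, which marks the lineage, and on size by forward scatter. Cultures were sampled on days 3, 4 and 6. The number in MK3 matches the day 3 samples, whereas no day is given for MKP, and for each array the sources used here do not give genotype, strain, age or tissue of origin. The other arrays, MK4 (2) and MK6 (3), entered only the shared estimate of the spread and are shown beside MKP and MK3. Whether the arrays of a stage stand for separate cultures is not said in the labels. The p-values therefore cover only the spread between these arrays, which may be technical. In bulk RNA, a change in the number of cells of a type and a change in RNA per cell cannot be told apart.

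Megakaryocytes are the marrow cells that shed platelets. Thrombopoietin drives their progenitors to divide and then to leave the progenitor state, in which the transcription factors Myb and Myc and the surface mucin Cd34 are high. Maturing cells enlarge and make the platelet glycoproteins, the alpha-granule proteins and the cytoskeleton of proplatelets under the transcription factors Gata1, Fli1 and Nfe2. Cultures of marrow or fetal liver also hold macrophages, granulocytes and, in fetal liver, hepatocytes.

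Values are given as log2(signal + 15.3), where signal is the deposited array intensity after scaling to a common trimmed mean. Differences are MK3 minus MKP in log2 units with their standard error (SE) from limma. Sizes of dim genes depend on the constant 15.3, and scaling leaves out any change in total RNA. The deposited trimmed means of the MKP arrays were 144 and 177, and those of the MK3 arrays 122 and 220. The 3'-to-5' signal ratio of actin lay between 0.957 and 1.08 on these 4 arrays and reached 3.21 on the third MK6 array. The 2 MKP arrays were closer to each other (Pearson r = 0.968 across genes) than the 2 MK3 arrays were (r = 0.925). Replicate 2 of MK3 correlated with the MKP arrays at 0.921 and 0.93, close to its value with replicate 1 of MK3. Its values with the MK4 arrays were higher, at 0.945 and 0.954. Replicate 1 of MK3 correlated with the MKP arrays at 0.901 and 0.89 and with the MK4 arrays at 0.905 and 0.925. The 2 MK3 arrays are therefore described separately wherever they parted. Megakaryocyte markers were present on all 4 arrays. Pf4, the platelet chemokine of alpha granules, stood at 12.08 and 12.03 on MKP and 12.09 and 12.46 on MK3, and Itga2b, which encodes CD41, stood at 10.36 and 9.96 against 9.96 and 11.43. Gp6 and Tubb1 had no probe set with a single gene name and were not analysed here.

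Of 9392 genes tested, 6 were higher in MK3 at a Benjamini-Hochberg adjusted p below 0.05 in limma (0.0639%) and 0 were lower (0%). The 6 were Lpl, Ttr, Mrc1, Slc40a1, Serpinb6a and Lmna. At an unadjusted limma p below 0.05 there were 572 higher (6.09%) and 355 lower genes (3.78%). The last adjusted p inside the threshold was 0.0322 and the first outside was 0.0615. The count depended on which arrays set the spread. Without the MK6 arrays limma called 53 genes higher (0.564%) and 11 lower (0.117%), and with the MKP and MK3 arrays alone 170 higher (1.81%) and 36 lower (0.383%). All 6 genes were called in both of these fits.

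The arrays were also read one by one, with no test. Both MK3 arrays lay at least 1 log2 unit, or 2-fold, above both MKP arrays for 167 genes (1.78% of those tested) and as far below both for 31 (0.33%). Exactly 1 MK3 array did so for 427 genes on the high side (4.55%), 263 of them on replicate 1 and 164 on replicate 2. On the low side there were 283 such genes (3.01%), 180 on replicate 1 and 103 on replicate 2. With the stages exchanged, a single MKP array lay that far above both MK3 arrays for 96 genes and that far below for 166. Many single-array genes were a matter of degree. For 320 of the 427 the other MK3 array also lay above both MKP arrays, by less than 1 log2 unit, and for 38 it fell inside the MKP range. Of the 283 low genes the other array lay below both MKP arrays in 210. The median difference over all genes was -0.04, and the median SE was 0.34.

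**Figure D1:**
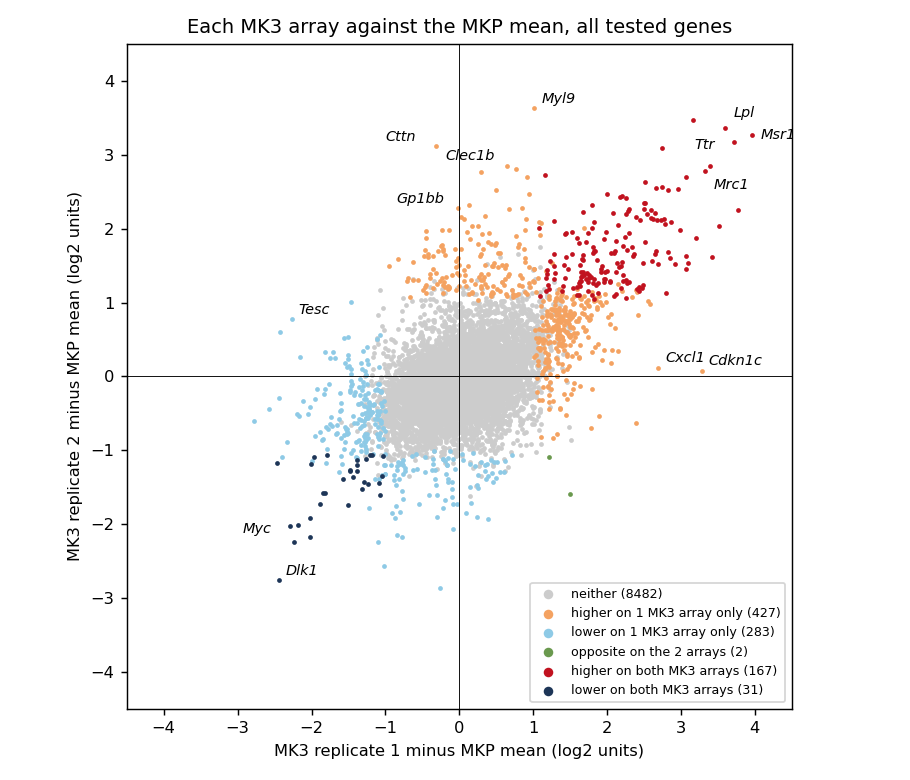
Each point is 1 of 9392 genes, placed by its log2 signal on MK3 replicate 1 (horizontal) and MK3 replicate 2 (vertical) minus the MKP mean, in log2 units, and coloured by whether both, 1 or neither MK3 array lay at least 1 unit past both MKP arrays. A few of the 167 red genes, such as Lpl, Ttr and Msr1, lie above 3 units on both axes, and the median difference of the 167 is 1.80, while orange and light blue genes such as Myl9, Cdkn1c and Tesc lie far out along a single axis.

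The gene with the lowest p was Lpl, lipoprotein lipase, which frees fatty acids from circulating lipoproteins. Lpl read 8.23 and 8.27 on the MKP arrays and 11.84 and 11.61 on the MK3 arrays. It rose by 3.48 ± 0.33 log2 units (limma adjusted p = 0.00215), and a second Lpl probe set differed by 3.27. Lpl stood at 9.48 and 9.96 on MK4 and between 9.06 and 9.97 on MK6, so both MK3 arrays were the highest of the 9. Slc40a1 encodes ferroportin, the exporter of cellular iron. Slc40a1 read 7.48 and 7.74 on MKP and 10.28 and 10.16 on MK3, a rise of 2.61 ± 0.24 (limma adjusted p = 0.00215). Its second probe set differed by 1.498. Serpinb6a, an intracellular inhibitor of serine proteases, read 7.81 and 7.71 against 10.28 and 10.39, a rise of 2.57 ± 0.27 (limma adjusted p = 0.00356). For both genes the 2 stages were separated by more than 2 log2 units, and the later stages lay between them.

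Ttr, the transthyretin carrier that liver cells secrete, read 5.92 and 5.48 on MKP, below the detection filter of 5.96, and 9.42 and 8.88 on MK3. It rose by 3.45 ± 0.38 (limma adjusted p = 0.00488), and all 3 of its probe sets that passed the filter differed by more than 3 log2 units. On the probe set used, only the MK3 arrays were above the filter, so Ttr entered the test through the stage where it was high. On MK4 it was back at 5.09 and 5.78. Mrc1, the mannose receptor of macrophages, read 6.47 and 6.59 on MKP and 9.85 and 9.32 on MK3, a rise of 3.06 ± 0.37 (limma adjusted p = 0.00912). Lmna encodes the A-type lamins of the nuclear envelope. It read 6.84 and 6.63 on MKP and 8.41 and 8.96 on MK3, a rise of 1.95 ± 0.27 (limma adjusted p = 0.0322). Its other probe set above the filter differed by 1.46 and was at least 2-fold higher on both MK3 arrays. That probe set was not called when all probe sets were tested (limma adjusted p = 0.1). Lmna read 7.70 and 8.19 on MK4, below both MK3 arrays, and between 8.42 and 8.66 on MK6, which overlapped MK3. All 6 genes lost their call when either MKP array was left out. Without MK3 replicate 1, Ttr, Mrc1 and Lmna lost theirs, and without MK3 replicate 2 Lmna did. Slc40a1, Serpinb6a and Lmna were not called on the values as deposited, nor Ttr with log2(signal + 1). Lmna, called under 14 of 23 alternatives, also lost its call with quantile normalization, with no intensity trend and without MK6 replicate 2 or 3.

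**Figure D2:**
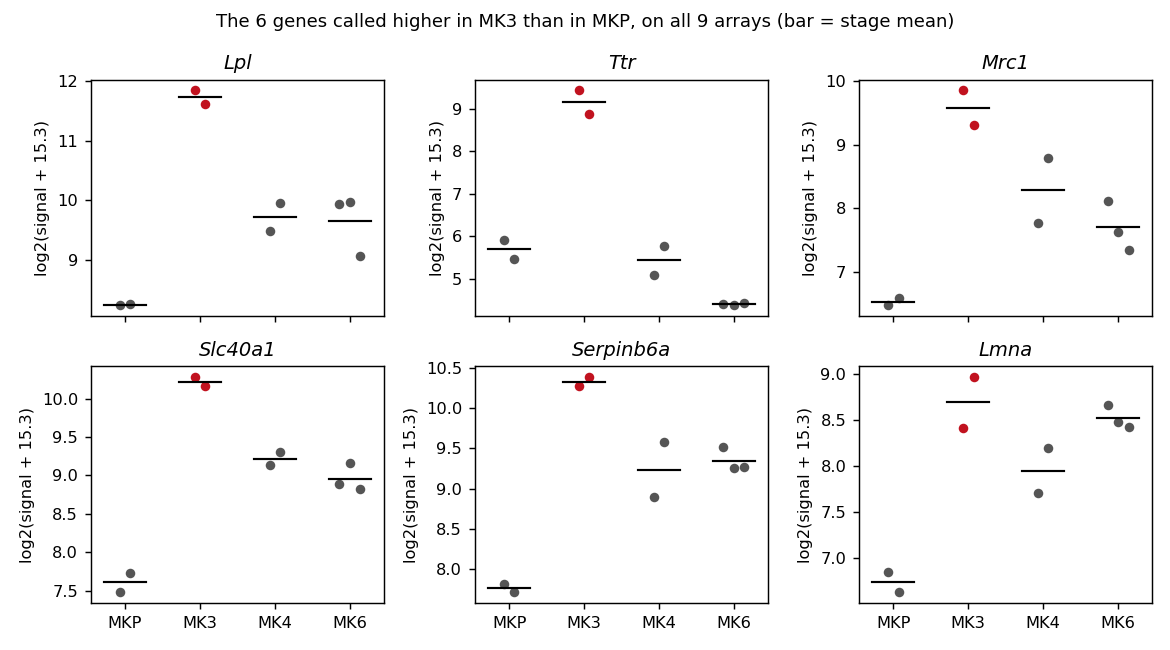
Log2(signal + 15.3) of the 6 called genes on all 9 arrays, with MK3 in red and a bar at each stage mean. Lpl rises from 8.23 and 8.27 to 11.84 and 11.61, and Ttr is near its MKP level again on MK4 (5.09 and 5.78) while Lmna on MK6 (8.42 to 8.66) overlaps MK3.

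The remaining genes with the widest gap between the stages did not pass the test and are given as values. Msr1, a scavenger receptor of macrophages, read 6.11 and 5.86 on MKP and 9.94 and 9.25 on MK3, a difference of 3.61 ± 0.76 (limma adjusted p = 0.0955). Cd5l, an apoptosis inhibitor secreted by macrophages, read 6.43 and 6.46 against 9.61 and 9.92, a difference of 3.32 ± 0.54 (limma adjusted p = 0.0615). On MK4 the 2 arrays read 6.32 and 8.59 for Msr1 and 8.67 and 10.80 for Cd5l, so the spread that entered their SE came in part from MK4. Fabp4, a fatty acid carrier, read 6.77 and 6.42 on MKP and 9.995 and 9.45 on MK3, while another of its probe sets above the filter differed by 0.65. Cd36, a receptor for thrombospondin and oxidised lipoproteins that platelets and macrophages both carry, read 6.88 on both MKP arrays and 9.39 and 9.22 on MK3. Lgmn, the lysosomal protease legumain, read 8.77 and 8.66 against 11.53 and 11.24. Serpina1b, an alpha-1-antitrypsin gene, read 4.29 and 4.37 on MKP, below the filter, and 7.08 and 7.42 on MK3. It was above the filter on the MK3 arrays only and entered the test through them. Its probe set may also read near-identical genes of its family. On the probe set used for each of these genes, both MK3 arrays lay more than 2 log2 units above both MKP arrays. The gap was smaller on others above the filter. Those of Msr1 differed by 2.03, 1.32 and 2.03, and the one at 1.32 cleared the 2-fold step on 1 MK3 array only. Second probe sets of Cd36 and Serpina1b differed by 2.07 and 2.17. Without the MK6 arrays, limma called Msr1, Cd5l, Fabp4, Cd36 and Serpina1b higher, and not Lgmn.

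Further genes among the 167 were chosen after their values were seen. Hmox1, heme oxygenase, read 8.80 and 8.96 on MKP and 11.56 and 11.002 on MK3 (limma adjusted p = 0.0615). Mertk, a receptor by which phagocytes engulf dying cells, read 6.77 and 6.40 against 9.45 and 8.67, and its ligand Gas6 read 6.13 and 6.16 against 8.36 and 7.90. Mfge8, a protein that bridges dying cells to phagocytes, read 7.25 and 7.26 against 10.35 and 8.80. Trem2, a lipid-sensing receptor of macrophages, read 5.82 and 5.41 on MKP, below the filter, and 9.39 and 7.87 on MK3. In Trem2 and Mfge8 replicate 1 of MK3 stood more than 1 log2 unit above replicate 2, though both cleared the MKP arrays. Hbb-y, an embryonic beta-like globin, went the other way, with 5.66 and 6.27 on MKP, 7.69 on MK3 replicate 1 and 10.50 on replicate 2, on a probe set that may also read other beta-like globins.

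Interferon-stimulated genes lay higher by similar amounts on the 2 MK3 arrays. They are switched on by type I interferon through the interferon-stimulated response element in their promoters, and many of their products block viral replication. Of 18 measured members of a list of 20, 12 lay at least 1 log2 unit higher on both MK3 arrays, 1 (Igtp) on replicate 2 only, and 0 lower. None passed the limma test over all genes, and 14 had an unadjusted p below 0.05. Limma called 12 with the MKP and MK3 arrays alone and 0 without the MK6 arrays. Over all genes 6.09% were higher at that unadjusted p, and 1.81% and 0.564% were called higher in these fits. The median difference was 1.65, with 1.55 on replicate 1 and 1.57 on replicate 2, against -0.04 for all genes.

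Promoters of the list's genes were searched for the core of that element, because the members moved together. The sequence searched was GAAA, then any 2 bases, then GAAA again, on either strand, from 250 bases before to 50 bases after the RefSeq transcription start (mouse build GRCm38.p6). It was present in 3.44% of all 32851 windows of this length and in 3.89% of the 7626 tested genes that matched a window. Among the 129 matched genes that were higher on both MK3 arrays, 20 held it (15.5%). In the interferon list, 6 of the 9 matched members that were higher on both arrays held it, and 2 of the 6 other matched members. The 4 promoters printed here belong to the list members that differed most and held a match. Capitals mark the matches, which all lie in the reverse direction (TTTC, 2 bases, TTTC) on the gene's strand. The windows lie at chr19:34583279-34583578 (plus strand) for Ifit3, chr12:26456403-26456702 (minus strand) for Rsad2, chr19:34640639-34640938 (plus strand) for Ifit1 and chr3:142620413-142620712 (plus strand) for Gbp2.
Ifit3: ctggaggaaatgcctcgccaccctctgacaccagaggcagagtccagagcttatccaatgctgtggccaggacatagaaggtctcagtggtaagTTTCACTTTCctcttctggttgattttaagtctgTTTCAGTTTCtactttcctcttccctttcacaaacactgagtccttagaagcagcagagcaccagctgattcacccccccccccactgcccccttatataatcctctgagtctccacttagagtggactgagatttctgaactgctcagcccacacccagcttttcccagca
Rsad2: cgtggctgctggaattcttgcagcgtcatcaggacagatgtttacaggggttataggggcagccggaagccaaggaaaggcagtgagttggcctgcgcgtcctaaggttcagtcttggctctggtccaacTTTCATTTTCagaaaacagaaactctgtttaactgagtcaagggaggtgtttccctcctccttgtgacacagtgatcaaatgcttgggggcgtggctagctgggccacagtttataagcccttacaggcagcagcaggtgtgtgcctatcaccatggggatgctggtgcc
Ifit1: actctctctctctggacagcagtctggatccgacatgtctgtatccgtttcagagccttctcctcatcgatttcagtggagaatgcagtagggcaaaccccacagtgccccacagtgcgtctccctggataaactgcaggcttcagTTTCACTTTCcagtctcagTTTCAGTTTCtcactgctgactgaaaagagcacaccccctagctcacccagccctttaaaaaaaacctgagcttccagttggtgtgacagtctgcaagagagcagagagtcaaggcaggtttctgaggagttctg
Gbp2: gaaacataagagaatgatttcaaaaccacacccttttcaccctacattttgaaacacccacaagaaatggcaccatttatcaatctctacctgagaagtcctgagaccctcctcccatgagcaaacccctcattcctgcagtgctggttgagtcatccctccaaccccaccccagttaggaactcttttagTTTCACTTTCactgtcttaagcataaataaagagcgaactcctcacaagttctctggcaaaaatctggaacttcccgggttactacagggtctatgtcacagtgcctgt
The Ifit3 and Ifit1 windows each held 2 matches, beginning 156 and 122 bases before the start in Ifit3 and 104 and 85 bases before it in Ifit1. The single match began 120 bases before the start in Rsad2 and 59 bases before it in Gbp2. A match is a description of the letters and not evidence of binding.

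Among the genes with these promoters, Ifit3, a blocker of viral RNA translation, read 6.57 and 6.86 on MKP and 9.67 and 9.24 on MK3. Rsad2, the antiviral enzyme viperin, read 8.28 and 8.07 against 10.92 and 10.74, a difference of 2.65 ± 0.55 (limma adjusted p = 0.0934). Ifit1 read 7.14 and 7.34 against 9.04 and 9.25, and the guanylate-binding GTPase Gbp2 6.03 and 6.21 against 8.22 and 7.79. In each of them the 2 MK3 arrays were closer to one another than to either MKP array. The Ifit3 probe set may also read the near-identical Ifit3b. Ifit2, whose windows held no match, read 6.47 and 7.04 on MKP and 9.83 and 9.45 on MK3. The GTPases Mx1 and Mx2 differed by 2.17 and 2.23, and Irf7, the transcription factor that amplifies the response, by 1.72. Mx2 was below the filter on both MKP arrays. Stat2, Ifi47, Ifi35, Irf1 and Psmb8, which did not clear the 2-fold step on either MK3 array, differed by 0.79, 0.75, 0.67, 0.21 and 0.05. The summed signal of the list was 5054 and 4905 on the MKP arrays and 13844 and 13127 on the MK3 arrays. On the MK4 arrays it was 5121 and 12210, so MK4 replicate 1 was at the MKP level and replicate 2 near the MK3 level, and on MK6 it ran from 3832 to 5483.

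Macrophage markers were higher on both MK3 arrays. Of 14 measured members of a list of 15, 8 lay at least 1 log2 unit higher on both arrays, 1 (Csf1r) on replicate 1 only and 1 (Itgam) that far lower on replicate 2 only. Mrc1 was the member that passed the limma test, and the median difference was 1.67, with 2.01 on replicate 1 and 1.26 on replicate 2. The 3 chains of C1q, the first complement component, read 7.24 to 7.94 on MKP and 9.50 to 10.25 on MK3. Fcgr1, the high-affinity receptor for IgG, read 7.31 and 7.59 against 10.05 and 9.59. Cd68, a lysosomal membrane protein of phagocytes, read 8.70 and 8.55 against 11.69 and 10.26, with MK3 replicate 1 well above replicate 2. Adgre1, which encodes the F4/80 antigen, read 8.96 and 8.95 against 10.81 and 10.19. The receptor gene Csf1r was already at 11.05 and 10.57 on MKP and read 12.35 and 11.29 on MK3. Lyz2, Cd14 and Cybb, which monocytes and granulocytes share, differed by 0.26, 0.16 and 0.10. The summed signal of the 14 genes was 14326 and 11628 on MKP and 34859 and 18978 on MK3. Marco was close to the filter, at 5.96 and 5.67 against 6.61 and 5.92, and the other 13 markers were above it on all 4 arrays. These cells were sorted on CD41, and the part that macrophage RNA had in the other differences was not tested.

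Hepatocyte markers were the other list of cells outside the lineage that lay higher on both MK3 arrays. Of 10 measured members of a list of 12, 7 were at least 1 log2 unit higher on both arrays and 1 (Ahsg) on replicate 1 only, with a median of 1.80 overall and 1.81 on each array. Ttr passed the limma test, and Alb, Afp and Rbp4 were also called without the MK6 arrays. Alb, serum albumin, read 7.72 and 7.79 on MKP and 10.04 and 9.997 on MK3. Afp, alpha-fetoprotein of the fetal liver, read 8.11 and 8.30 against 10.83 and 10.34, and Rbp4, the plasma carrier of retinol, 6.55 and 6.38 against 8.42 and 8.33. Fgb, the beta chain of fibrinogen, read 6.24 and 5.60 against 8.26 and 7.67. Apob and Apoh differed by -0.01 and 0.85. Ttr, Apoa1, Apoa2, Ahsg, Apob and Apoh were below the filter on both MKP arrays. These members could be counted as measured only through MK3 or later arrays, which favours members that are high there. The count of 7 of 10 and the median of 1.80 therefore rest in part on that selection. Alb, Afp and Rbp4 were above the filter on both MKP arrays and were also higher on both MK3 arrays. The summed signal of the list was 770 and 720 on MKP, 4461 and 3527 on MK3, 628 and 1236 on MK4 and between 228 and 584 on MK6. Albumin RNA was therefore measurable on the MKP arrays too, and the MK3 arrays held the highest level of the 9. The labels name both fetal liver and bone marrow for the series and do not assign a tissue to an array. The part that hepatocyte RNA had in the other differences was not tested.

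Lysosomal genes were higher chiefly on replicate 1 of MK3. Of 19 measured members of a list of 22, 4 lay at least 1 log2 unit higher on both arrays (Ctsl, Ctss, Hexa and Lipa), 9 on replicate 1 only and 0 lower. None passed the limma test over all genes, and 14 had an unadjusted p below 0.05. Limma called 6 with the 4 arrays alone and 0 without the MK6 arrays. The shares of all genes were 6.09% higher at that unadjusted p and 1.81% and 0.564% called higher in these fits. The median difference was 1.02, with 1.32 on replicate 1 and 0.56 on replicate 2. Ctss, cathepsin S, which is also in the macrophage list, read 10.32 and 10.42 on MKP and 12.67 and 11.65 on MK3. Lipa, the acid lipase that splits lysosomal cholesterol esters, read 8.99 and 9.02 against 10.75 and 10.28. Ctsb read 11.63 and 11.53 on MKP, 13.27 on MK3 replicate 1 and 12.50 on replicate 2, and Ctsa 9.80 and 9.42 against 11.68 and 10.46. In these genes replicate 2 lay above both MKP arrays but by less than replicate 1. The summed macrophage signal had the same order, with 34859 on replicate 1 and 18978 on replicate 2, and its part in the lysosomal difference was not tested.

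**Figure D3:**
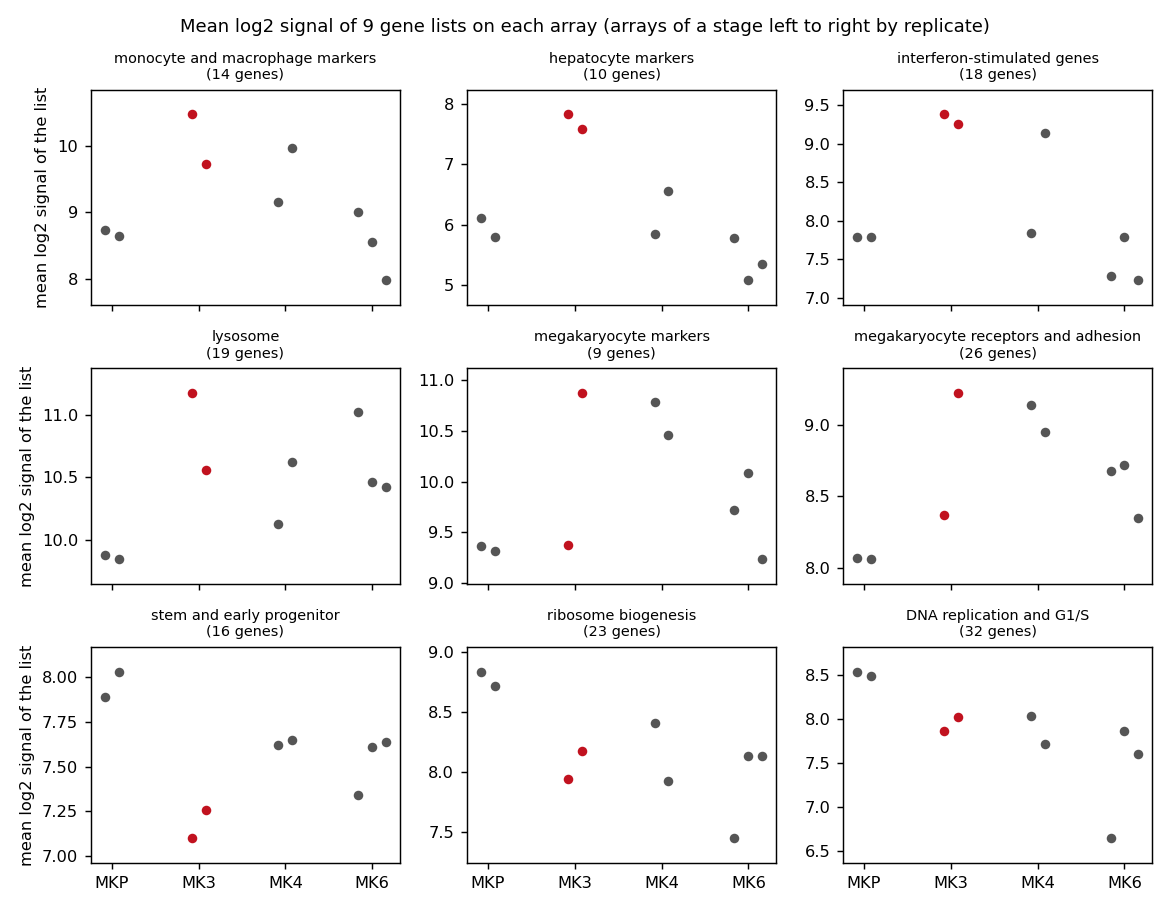
Mean log2(signal + 15.3) of the measured members of 9 lists on each array, with stages along the horizontal axis and MK3 in red. Hepatocyte, interferon and macrophage genes lie above MKP on both MK3 arrays, while megakaryocyte markers lie above MKP on MK3 replicate 2 and at its level on replicate 1.

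On the low side, no gene passed the limma test in the fit of all 9 arrays, and the lowest adjusted p was 0.0615. The 31 genes at least 2-fold lower on both MK3 arrays are given as values. Dlk1, a delta-like membrane protein of immature cells, read 11.30 and 11.28 on MKP and 8.85 and 8.54 on MK3, a difference of -2.60 ± 0.68 (limma adjusted p = 0.172, and 0.00712 without the MK6 arrays). Both MK3 arrays stood below MKP and below MK4, where Dlk1 read 10.53 and 11.13, and the MK6 arrays ranged from 7.94 to 10.88. Podxl, a sialomucin of the Cd34 family, had the same order, with 9.07 and 8.96 on MKP, 6.84 and 7.003 on MK3 and 8.79 and 8.43 on MK4. A second Podxl probe set was lower by this margin on replicate 2 only. Akr1c13, an aldo-keto reductase, read 7.31 and 7.46 on MKP and 5.15 and 5.14 on MK3, below the filter, and it stayed between 4.79 and 5.60 on MK4 and MK6. Runx3, a Runt-domain transcription factor, read 6.99 and 6.65 against 4.80 and 4.65, also below the filter.

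Of 16 measured members of a list of 20 stem and early progenitor genes, 4 (Myc, Myb, Cd34 and Hoxa9) were at least 1 log2 unit lower on both MK3 arrays, 4 on 1 array only and 0 higher. The median was -0.72, against -0.04 for all genes, with -0.81 on replicate 1 and -0.54 on replicate 2. Myc, which drives cell growth, read 9.68 and 9.93 on MKP and 7.51 and 7.77 on MK3, a difference of -2.16 ± 0.49 (limma adjusted p = 0.11, and 0.00712 without the MK6 arrays). Myb, whose loss turns progenitors toward megakaryocytes, read 10.46 and 10.58 against 9.04 and 9.25 (limma adjusted p = 0.51, and 0.0378 without the MK6 arrays). Its MK6 arrays spread from 6.04 to 8.78, and they enter the SE of the first value. Cd34 read 8.40 and 8.86 on MKP and 6.78 and 7.04 on MK3 and was also called lower without the MK6 arrays. Hoxa9, a homeobox factor of early progenitors, read 7.62 and 7.47 against 6.17 and 6.41. Kit, the stem cell factor receptor, differed by -0.68 on the probe set used, while a second Kit probe set was lower on both arrays, by 1.71 log2 units. Gata2 and Lmo2, which megakaryocytes keep, differed by -0.29 and -0.13.

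The other genes named on the low side were of mixed function. Nkg7, a granule membrane protein of cytotoxic lymphocytes, read 9.13 and 9.34 on MKP and 7.35 and 7.51 on MK3. Hspa1b, an inducible heat shock protein whose probe set may also read the near-identical Hspa1a, read 7.90 and 8.53 against 6.19 and 6.31. Cort, cortistatin, read 6.47 and 6.55 against 4.69 and 4.93, below the filter on both MK3 arrays. Nfix, a nuclear factor I gene of stem cells, read 7.51 and 7.52 against 5.50 and 6.33. Mtm1, the phosphoinositide phosphatase myotubularin, had the lowest adjusted p of a lower gene, with 10.10 and 10.41 against 8.69 and 8.87, and of its other 2 probe sets 1 was lower on both MK3 arrays, by 1.86 log2 units, and 1 differed by 0.05. Nkx2-6, Mettl27 and Mogat2 differed by -1.35, -1.42 and -1.29, with Nkx2-6 and Mettl27 below the filter on both MK3 arrays. For all of these the MK3 arrays lay below both MKP arrays. Without the MK6 arrays limma called Nkg7, Cort and Mtm1 lower, and also Akr1c13, Podxl, Ripor1 and Gfi1.

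**Figure D4:**
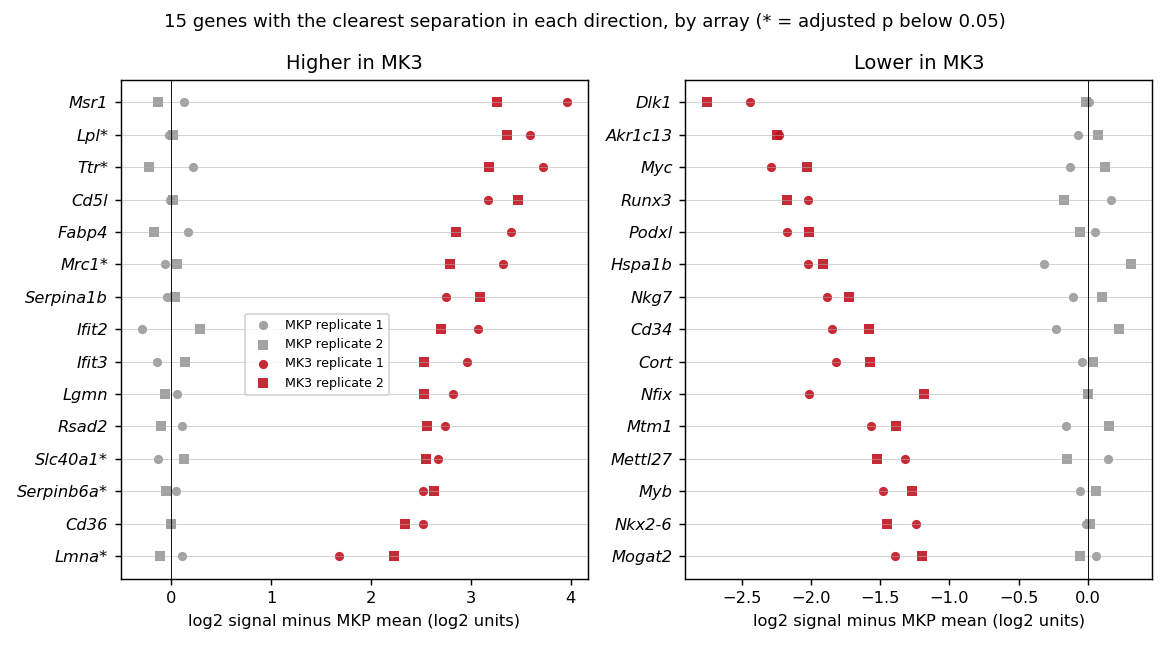
Log2 signal minus the MKP mean on each MKP (grey) and MK3 (red) array for the 15 genes named in each direction, with circles for replicate 1 and squares for replicate 2 and an asterisk for a limma adjusted p below 0.05. On the left the 2 MK3 arrays of Lpl lie more than 3 units from the MKP arrays, and on the right those of Dlk1 lie more than 2 units below.

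Genes of the megakaryocyte itself differed between the 2 MK3 arrays. Of 9 measured megakaryocyte markers in a list of 12, 7 lay at least 1 log2 unit above both MKP arrays on MK3 replicate 2 only, and 0 did so on both arrays. The median difference was 0.04 on replicate 1 and 1.69 on replicate 2. The summed signal was 9505 and 9178 on MKP, 9615 on MK3 replicate 1 and 21280 on replicate 2, against 20609 and 17057 on MK4. Replicate 1 was thus at the MKP level and replicate 2 at the MK4 level. None passed the limma test, and 2 were higher at an unadjusted limma p below 0.05, against 6.09% of all genes. Clec1b, the platelet receptor for podoplanin, read 8.01 and 8.15 on MKP, 8.73 on MK3 replicate 1 and 10.93 on replicate 2. Of the receptor for von Willebrand factor, Gp1bb read 8.90 and 8.74 against 8.80 and 11.10, Gp9 8.54 and 8.17 against 8.43 and 10.49, and Gp5 8.59 and 8.89 against 9.05 and 10.67. A second Gp1bb probe set did not clear the step on either MK3 array, at 6.97 and 6.19 against 6.64 and 7.17. Vwf itself read 8.93 and 8.89 against 8.62 and 10.60. Without replicate 2 the differences of Itga2b and Gp1bb turned to -0.20 and -0.014. Itgb3, the partner of Itga2b, read 8.12 and 8.15 against 7.66 and 8.22, and its difference of -0.19 turned to 0.086 without replicate 1.

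The wider lists of platelet genes were split in the same way. Among 26 measured receptor and adhesion genes of a list of 31, 14 were at least 1 log2 unit higher on a single MK3 array, 13 of them on replicate 2. Cd36 and Cd84 were higher on both, and Jam3 was lower on replicate 2 only. Their median was 0.10 on replicate 1 and 1.21 on replicate 2. Of 25 measured granule genes 7 were that far higher on replicate 2 only, among them the coagulation factor F5, 2 were lower on replicate 1 only, and Ecm1 was higher on both arrays. Of 30 measured genes of the proplatelet cytoskeleton, 6 were higher on replicate 2 only, 1 was lower on replicate 1 only, and 0 cleared the step on both. Myl9, a myosin regulatory light chain, had the widest single-array gap of all genes, with 5.46 and 5.85 on MKP, 6.67 on replicate 1 and 9.28 on replicate 2. Its MKP readings were below the filter. Vcl, vinculin, read 9.10 and 9.41 against 9.35 and 11.21, although its second probe set differed by 0.03. Cttn, cortactin, read 6.10 and 7.28 against 6.38 and 9.81 and was between 8.73 and 9.79 on MK4 and MK6. Tubb2a, a beta-tubulin, read 6.40 and 6.73 against 7.51 and 9.04, higher than MKP on both arrays but by 2-fold only on replicate 2. None of these 3 lists held a gene that passed the limma test over all genes. Of the 26, 25 and 30 members, 9, 3 and 6 had an unadjusted limma p below 0.05, all of them higher. Among all genes 6.09% were higher at that level.

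Transcription factors of the lineage were mostly near their MKP level. Of 25 measured factors of a list of 28, Myb was at least 1 log2 unit lower on both arrays, 1 was higher and 3 were lower on a single array, and the median was -0.20. Gata1 read 8.53 and 8.50 on MKP, 8.52 on MK3 replicate 1 and 9.74 on replicate 2. Nfe2, which drives late maturation, read 9.92 and 9.997 against 8.88 and 10.52, below MKP on one MK3 array and above it on the other. Fli1 read 8.03 and 8.19 against 7.49 and 8.81. Ikzf1, Ikaros, read 8.51 and 8.09 against 7.20 and 6.06, below both MKP arrays on both and at least 1 log2 unit below on replicate 2 only. Meis1 read 7.45 and 7.63 against 5.71 and 7.30. For Nfe2 and Fli1 the direction of the difference depended on which MK3 array was taken.

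Single-array differences on replicate 1 were of another kind. Cdkn1c, the cell cycle inhibitor p57, read 5.59 and 5.55 on MKP, 8.85 on replicate 1 and 5.64 on replicate 2. Cxcl1, a chemokine that attracts neutrophils, read 5.03 and 4.89 against 7.65 and 5.07, and its MK4 and MK6 arrays ran from 6.15 to 8.68. Cdkn1c and Cxcl1 were below the filter on both MKP arrays and on MK3 replicate 2. On the low side, Tesc, a calcium-binding protein of maturing megakaryocytes, read 7.07 and 6.91 on MKP, 4.72 on replicate 1 and 7.77 on replicate 2, and reached 10.62 to 11.37 on MK6. Stat4 read 6.99 and 6.84 against 4.34 and 6.47, and Abca4 6.53 and 6.52 against 4.10 and 7.13. Zmynd19, Ilf2 and Gtf2ird1 were at least 1 log2 unit lower on replicate 1 only, where they were below the filter. On replicate 2 each of them also lay below both MKP arrays, by less than 1 log2 unit. A second Ilf2 probe set did not clear the step on either array. On replicate 2 the genes singled out were Timp3, an inhibitor of matrix proteases, at 7.17 and 7.08 against 7.43 and 9.89, Mest at 6.75 and 6.99 against 7.64 and 9.68, and Tent5c at 6.43 and 6.81 against 7.54 and 9.31. Hcar2 and Prok2 were at least 1 log2 unit lower on replicate 2 only. Hcar2 read 7.13 and 7.57 against 7.10 and 4.49, and Prok2 6.71 and 6.82 against 5.74 and 4.20. The MK3 readings of Prok2 and the replicate 2 reading of Hcar2 were below the filter. No limma adjusted p of these genes was below 0.05. Hspb2 and Trib1 were the 2 genes at least 1 log2 unit above MKP on replicate 1 and as far below it on replicate 2.

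Genes of growth and division lay lower, by less than 2-fold for most. All 23 measured ribosome biogenesis genes of a list of 24 were below MKP on average, with a median of -0.64, and 6 were at least 1 log2 unit lower on a single array, 5 of them on replicate 1. Fbl, the methyltransferase fibrillarin, read 10.20 and 9.57 against 8.50 and 8.78, and Nolc1 8.53 and 8.62 against 7.05 and 7.87. Of 32 measured DNA replication genes of a list of 36, 30 were below MKP on average, with a median of -0.57, and 4 were at least 1 log2 unit lower on a single array. Cdc6, which loads the replicative helicase, read 7.31 and 7.43 against 5.77 and 6.54, and Rrm1, a subunit of ribonucleotide reductase, 10.12 and 9.78 against 8.95 and 8.63. Of 35 measured mitosis genes none differed by 2-fold from both MKP arrays on either MK3 array, and their median was -0.25. Both MK3 arrays lay below both MKP arrays, by any size, for 20 of the 23, 26 of the 32 and 22 of the 35 genes. Over all genes tested that share was 26.5%, against 19.5% with both MK3 arrays above. None of the 3 lists held a gene that passed the limma test. In them 4, 5 and 0 members had an unadjusted limma p below 0.05, all lower, against 3.78% of all genes. Among D cyclins and kinase inhibitors Ccnd3 read 10.21 and 9.99 against 9.97 and 10.38, and Ccnd2 10.16 and 9.84 against 8.73 and 9.69. Cdkn2b, the p15 inhibitor, was the member of that list that was higher on both arrays, at 4.45 and 4.64 against 6.36 and 6.24. Its MKP readings were below the filter.

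The other lists held few members that cleared the 2-fold step, and higher or lower on an array here means past both MKP arrays by that step. Of 17 measured cholesterol synthesis genes, 2 (Sqle and Cyp51) were lower on replicate 1 only, and the list median was -0.78 on replicate 1 and 0.12 on replicate 2. Of 19 measured cytokine receptor and signalling genes, Il7r read 6.60 and 6.68 on MKP and 8.90 and 7.94 on MK3, Csf1r was higher and Socs2 lower on replicate 1 only, and the median was -0.07. Of 12 antigen presentation genes 3 were higher on replicate 1 only. Neutrophil markers were abundant on both stages, with a summed signal of 49440 and 40496 on MKP and 36754 and 36706 on MK3. Of 13 measured, Gfi1, a repressor of granulocyte progenitors, was lower on both arrays, at 7.85 and 8.17 against 6.62 and 6.72. Elane, Mmp8 and Mmp9 were lower by the 2-fold step on replicate 2 only. On replicate 1 Elane and Mmp9 also lay below both MKP arrays, by less than that. Elane read 11.85 and 11.70 against 10.73 and 10.44, and Mmp9 8.06 and 8.11 against 7.51 and 7.04. The median of the neutrophil list was -0.29, and the part of these cells in the differences was not tested. No erythroid marker among 6 measured cleared the step on either array, 2 of 9 mast cell and basophil markers were higher on replicate 1 only, and of 7 fibroblast and endothelial markers only Kdr was. Of 4 measured lymphocyte markers Nkg7 was lower on both arrays, while Cd3e, Cd3g, Cd3d, Pax5, Rag1 and Ebf1 were below the filter.

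**Figure D5:**
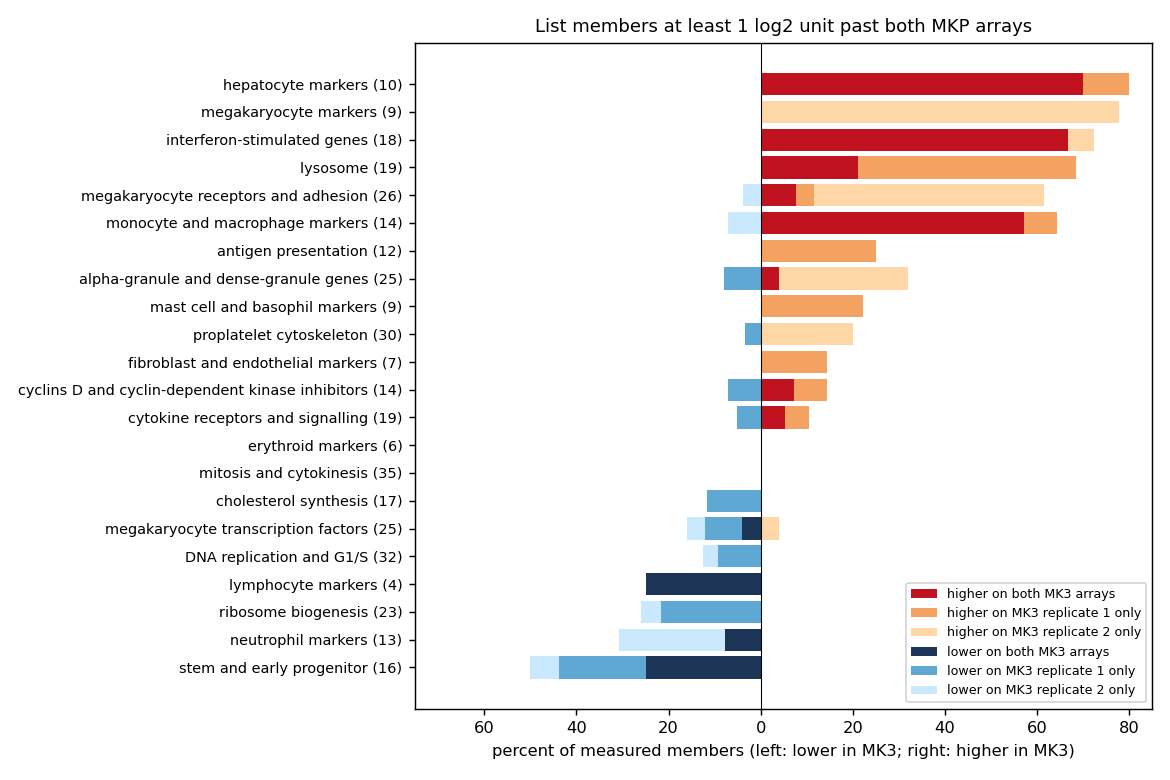
For each of the 22 lists, with the number of measured genes in brackets, the percent of members that lay at least 1 log2 unit above (right) or below (left) both MKP arrays on both MK3 arrays (dark) or on 1 of them (light). Hepatocyte, interferon and macrophage lists are mostly dark on the right (7 of 10, 12 of 18 and 8 of 14 genes), megakaryocyte markers are light throughout (7 of 9 on replicate 2), and the stem and progenitor list lies on the left.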

How the data were processed

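RNA of 9 sorted samples had been hybridised to Affymetrix MOE430A arrays. The authors deposited probe set intensities on a linear scale and, per the submitters' processing notes, MAS5 was used; the sources used here do not give its version or settings. Arrays were grouped by title, and replicates are numbered in deposit order (the MK6 arrays numbered 2 and 3 are titled replicate1 and replicate2). Of 22690 probe sets, 20380 had 1 gene, 691 several, 1555 none and 64 were controls; 20351 were matched to RefSeq by gene ID for current symbols. Each array was scaled to a trimmed mean of 160 (2% off each end) and taken as log2(signal + 15.3), the 20th percentile. Genes needed a signal above 46.8 (the 40th percentile, 5.96 on the log2 scale) on at least 2 of 9 arrays, which left 9392 of 12393, each by its probe set of highest mean. Differences were tested with limma 3.58.1 (R 4.3.3) on all 9 arrays, with a mean per stage, an intensity trend, 5 residual degrees of freedom and Benjamini-Hochberg adjustment over all genes. The limma estimates of known differences were checked on simulated log2 values, and the sorting into both or 1 array on a small made-up example. Scaling, filter and probe set choice were not simulated. The number of arrays limits the precision.

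Named genes are the called genes and, to 15 in each direction, those with the largest smallest difference between an MK3 and an MKP array, the 8 genes each way with the widest gap of 1 MK3 array, the 4 most different members of each list and 10 lineage genes; others are named as list members or as chosen after their values were seen. Members, lists and rules were chosen with earlier results of these data known. Alternatives changed the constant, filter, scaling, probe set rule, arrays fitted, variance model and each array left out.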

Additional observations from a re-analysis of the deposited data

How the results depend on the processing

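The arrays that set the spread and the level scaling mattered most for the number of called genes (6 higher, 0 lower). Higher and lower calls numbered 170 and 36 with the MKP and MK3 arrays alone, 53 and 11 without the MK6 arrays, 34 and 1 with a common median, 19 and 2 with log2(signal + 50), and 17 higher as deposited, where 3 of the 6 genes were still called. The lower calls were 1 with the mean of probe sets, 2 with all probe sets and 1 with no intensity trend. With 1 array left out they ranged from 0 to 90 higher and from 0 to 20 lower: 0 and 0 without either MKP array, 3 higher without MK3 replicate 1, 40 and 25 higher without MK4 replicates 1 and 2, and 90 higher and 20 lower without MK6 replicate 1. Where 1 array of a stage was left, it was assumed to vary like the other stages. The cause of these shifts was not tested. Genes at least 2-fold lower on both MK3 arrays (31) and on 1 (283) numbered 66 and 480 with log2(signal + 1), 10 and 112 with log2(signal + 50), 19 and 556 as deposited and 86 and 543 with all probe sets, and the single-array count was 182 under the stricter filter. With 1 array left out, the counts ranged from 71 to 87 lower on both and from 503 to 524 lower on 1 without an MKP array, and those higher on both reached 247 and 253. With steps of 0.5 log2 units, chosen after seeing the data, the counts were 471 higher and 315 lower on both and 1099 higher and 1295 lower on 1 array, and with 1.5 log2 units 74, 8, 173 and 64.

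Differences near 0 changed sign. Cd79a (-0.0042) was 0.0085 with quantile normalization, 0.039 with a common median and 0.029 as deposited, Ccnd3 was -0.0020 with quantile normalization, and Col1a2 and Fli1 were -0.18 and -0.012 with the mean of probe sets. With 1 array left out, the differences that crossed 0, none of them of a called gene, ranged from -2.43 to 0.60 for Abca4, -2.27 to 0.78 for Tesc, -0.47 to 0.086 for Itgb3, -1.08 to 0.56 for Nfe2, -0.31 to 3.12 for Cttn, -0.014 to 2.28 for Gp1bb, -0.20 to 1.27 for Itga2b, -0.70 to 0.081 for Dcn, -0.62 to 0.70 for Fli1, -1.11 to 0.52 for Slc4a1, -0.16 to 0.58 for Cd79b, -0.16 to 0.15 for Cd79a and -0.12 to 0.28 for Ccnd3. Of the named genes' differences under all alternatives, 2712 kept their direction and their side of the threshold, 115 newly passed it, 24 no longer passed it and 24 changed sign. No paired analysis was possible because the labels carry no replicate numbers shared between stages.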
